A study of Mus musculus with 24 samples.

Results

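Foxp3 and the 5 genes of the Ikaros family, Ikzf1 to Ikzf5, were followed across mouse CD4 T cells that lack or carry the corepressor gene Trim28. Their members were all probes that the array names Foxp3 or, under the older symbols Zfpn1a1 to Zfpn1a5, Ikzf1 to Ikzf5, which gave 11 of 41174 probes for 6 of 16489 genes tested. Sorted cells came from female C57BL/6 mice, 6 or 7 weeks old, and their RNA was read in 1 colour (Cy3) on 24 Agilent arrays, 4 for each of 6 groups. The groups were Treg (CD4+CD62+CD25+) from Trim28CKO mice and from WT mice, naive cells (CD4+CD62+CD25-) stimulated for 13 h on plate-coated anti-CD3 and anti-CD28 from both genotypes, and unstimulated naive cells from both genotypes. Trim28CKO, here CKO, is a T cell-specific conditional knockout on a C57BL/6 background, and the promoter that drives its Cre is not given in the sources used here. The treatment label calls the CKO Treg TCR-stimulated and the WT Treg unstimulated, while the design text gives stimulation for naive cells only. If that label is right, stimulation and genotype cannot be told apart in Treg. The labels do not say whether the 4 arrays of a group came from separate mice, so each p-value weighs a difference against array-to-array spread that may be technical.

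Foxp3 encodes the forkhead transcription factor that defines regulatory T cells (Treg), and CD4 T cells outside that lineage usually hold little of it. The Ikaros family are zinc finger transcription factors that bind related DNA sites, pair with each other and recruit repressor complexes. Helios (Ikzf2) and Eos (Ikzf4) are best known from Treg, Ikaros (Ikzf1) and Aiolos (Ikzf3) from lymphocyte development and activation, and Pegasus (Ikzf5) is the most distant relative. The product of Trim28 silences genes where KRAB zinc finger proteins recruit it.

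Levels are given as log2 of the background-subtracted signal relative to the 75th percentile of its array, so a value of 0 lies at that percentile. A gene was called when its Benjamini-Hochberg adjusted p in limma, over all 16489 genes, was under 0.05. All 11 probes passed the filter on dim probes and none was saturated. 8 of them were well above background on all 24 arrays. The 75th percentile of the raw signal was 31.3 to 116 on CKO Treg arrays and 53.9 to 200.2 on WT Treg arrays, against 154 to 372 on naive arrays. The Trim28 difference was -1.51 ± 0.17 in unstimulated, -2.68 ± 0.17 in stimulated and -1.57 ± 0.17 in Treg cells (CKO minus WT, log2, SE), each called. Of 7 T cell markers, 4 were lower in CKO unstimulated cells (Cd3e -0.74, Cd3g -0.71, Cd247 -0.49 and Cd5 -0.68, log2, list median -0.49), against 10.9% of all genes. None was called in stimulated cells, where 1 had an unadjusted p under 0.05. Cd5 was lower in CKO Treg (-0.53, adjusted p = 0.0234), against 1.84% of all genes. The summed linear signal of the 7 markers, in units of the 75th percentile, was 359 to 422 in CKO and 435 to 536 in WT unstimulated cells. Cd4 was not called in any state. Each slide held 4 arrays of both genotypes and of a pair of states.

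RefSeq upstream windows (build GRCm38.p6) were found for 3 of the 6 genes: Foxp3, Ikzf1 and Ikzf5. The 250 bases before a Foxp3 start are shown because Foxp3 had the largest genotype difference of the 6 genes. Capitals mark TTTCC, the reverse complement of the NFAT core GGAAA, and TATAAA.
Foxp3, chrX:7579426-7579675, plus strand: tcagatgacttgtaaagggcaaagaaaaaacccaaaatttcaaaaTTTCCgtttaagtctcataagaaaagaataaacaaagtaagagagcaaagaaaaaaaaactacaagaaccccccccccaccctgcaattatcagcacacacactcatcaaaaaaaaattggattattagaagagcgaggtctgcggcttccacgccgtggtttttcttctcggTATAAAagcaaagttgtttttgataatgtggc
The TATAAA begins 32 bases before the start and the TTTCC 205 bases before it. The Ikaros core TGGGAA and 1 form of the forkhead motif, TGTTTAC, were searched on both strands and were not in these letters. Other forms of these motifs were not searched. Over 32851 windows of 250 bases, TATAAA was present in 12.4%, GGAAA in 55.6%, TGGGAA in 21.6% and TGTTTAC in 3.17%. The window has 37.6% G and C, against a median of 52.4%. The second Foxp3 window holds 1 NFAT core and no TATAAA, and the Ikzf5 window 1 NFAT core. The 2 Ikzf1 windows hold none of the 4 motifs, at 82% and 47.6% G and C.

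Foxp3 was highest in Treg of both genotypes and, among naive cells, higher without Trim28 in both states. Its single probe (A_51_P401096, X chromosome) read 3.37, 3.20, 3.21 and 3.58 in CKO Treg, against 3.52, 3.09, 3.23 and 3.19 in WT Treg. In stimulated naive cells it read -1.65, -1.18, -1.35 and -1.06 in CKO, against -4.14, -3.87, -3.61 and -3.41 in WT. In unstimulated naive cells it read -1.39, -1.77, -2.34 and -1.80 in CKO, against -2.46, -2.57, -3.15 and -2.94 in WT. The 2 Treg groups overlapped, and in both naive states every CKO array lay above every WT array. The 2 genotypes were so separated for 25.6% of all genes in stimulated and 20.5% in unstimulated cells. In order of mean level came CKO Treg and WT Treg, which overlapped, then CKO stimulated and CKO unstimulated, which also overlapped, then WT unstimulated and, below all the others, WT stimulated.

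The genotype difference in Foxp3 was 5.46-fold in stimulated cells (log2 2.45 ± 0.20, SE, n = 4 each, adjusted p = 5.30e-08), place 22 of 16489 genes by p. In unstimulated cells it was 1.94-fold (log2 0.96 ± 0.20, adjusted p = 0.00356). In Treg it was 0.08 ± 0.20 on the log2 scale (adjusted p = 0.926), with a 95% interval of -0.33 to 0.50. CKO and WT arrays of the same number and state shared a slide, and the differences within slides were 2.50, 2.68, 2.26 and 2.35 in stimulated cells, 1.07, 0.79, 0.82 and 1.14 in unstimulated cells and -0.15, 0.11, -0.02 and 0.39 in Treg. Both naive differences thus stood above 0 on each slide. The unstimulated call was lost with normexp background correction (log2 0.27, adjusted p = 0.0794). This setting, called normexp here, adds an offset of 50 to the signal and is followed by quantile normalization. Such an offset shrinks log2 differences between dim signals. In stimulated cells normexp gave 0.73 with the call kept.

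With stimulation Foxp3 was called in opposite directions in the 2 genotypes, though neither call held under every setting. Stimulated CKO cells were 1.43-fold above unstimulated CKO cells (log2 0.51 ± 0.20, adjusted p = 0.0321), with overlapping arrays, and stimulated WT cells were 1.97-fold below unstimulated WT cells (log2 -0.98 ± 0.20, adjusted p = 2.30e-04), with none overlapping. The interaction was 1.49 ± 0.28 (log2, adjusted p = 0.00460), and was not called with normexp (0.46, adjusted p = 0.0995) or with a signal floor (0.60, adjusted p = 0.140). It was the only call among the 6 genes, against 3.42% of all genes tested. The rise in CKO cells was not called without CKO unstimulated array 3 or 4, or without CKO stimulated array 2 or 4 (log2 0.34 to 0.52, adjusted p 0.0511 to 0.147), nor with slide as a fixed block (log2 0.45, adjusted p = 0.0972), with scaling on the 2000 brightest probes (log2 0.24, adjusted p = 0.316), with no filter on dim probes or with only the compared arrays fitted. The fall in WT cells was not called with normexp (log2 -0.21, adjusted p = 0.106) or with the signal floor (log2 -0.09, adjusted p = 0.809). On the slides that held both states the CKO difference was -0.26 and 0.98, and the WT difference -1.68 and -0.46.

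**Figure D1:**
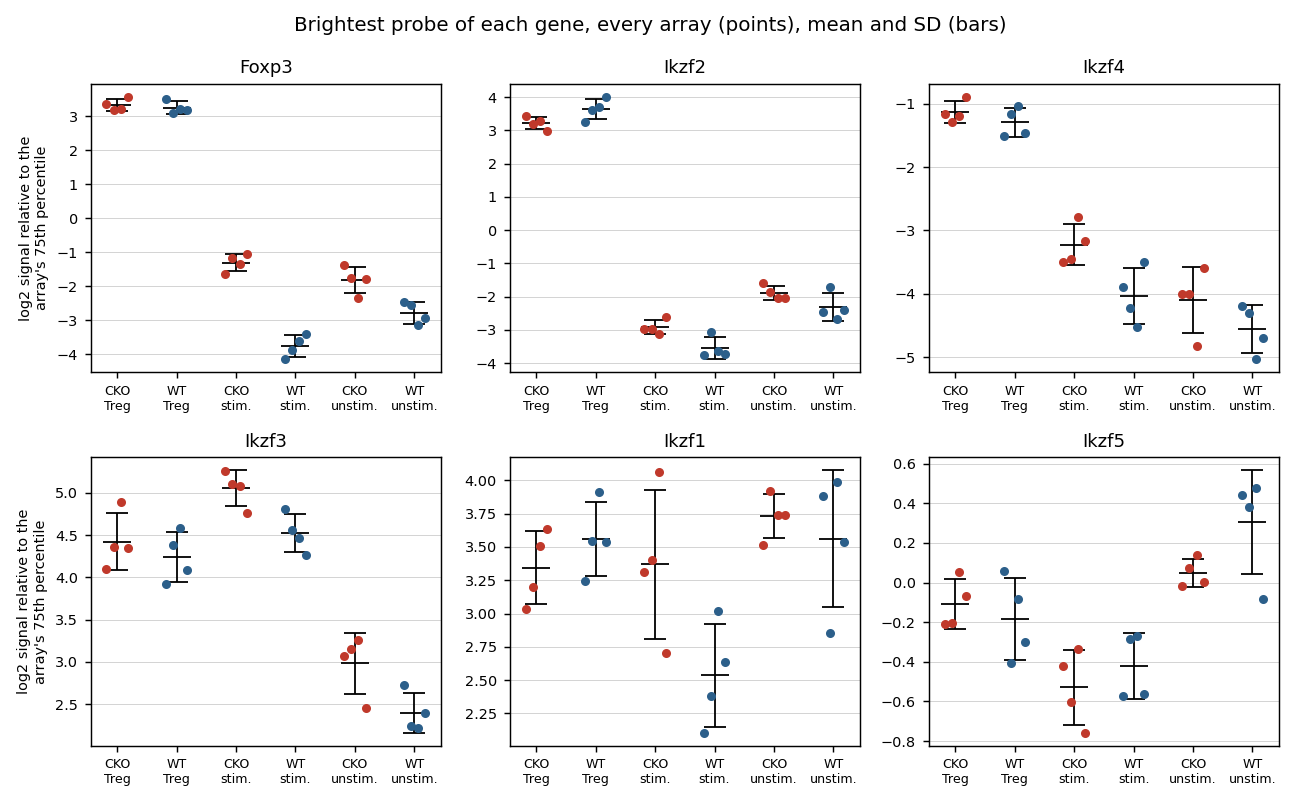
Log2 signal relative to the array's 75th percentile (y axis, scale set per gene) for the brightest probe of each gene in the 6 groups of 4 arrays (CKO red, WT blue), with mean and SD as bars. Foxp3 and Ikzf2 stand above 2.9 on each Treg array and below -1 on each naive array.

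Between Treg and unstimulated naive cells, 4 of the 6 genes were higher in Treg of CKO mice and none lower, against 28.3% of all genes called (11.6% higher, 16.7% lower). In WT 4 were higher and 1 lower, against 48.4% (18.9% higher, 29.4% lower). The arrays of the 2 cell types did not overlap for 4 of the 6 genes in either genotype, against 30.9% of all genes in CKO and 34.8% in WT. Foxp3 was 35.8-fold higher in CKO Treg (log2 5.16 ± 0.20, adjusted p = 1.99e-13) and 65.6-fold in WT Treg (log2 6.04 ± 0.20, adjusted p = 9.94e-15). It took place 3 of 16489 by p in each genotype. The Treg had been sorted by CD25, a surface marker of that lineage. The Foxp3 level of CKO stimulated cells amounted to 3.99% of that in CKO Treg, and that of WT stimulated cells to 0.774% of that in WT Treg. Unstimulated cells stood at 2.79% in CKO and 1.52% in WT. In bulk RNA a few cells with much Foxp3 and many cells with little cannot be told apart, nor fewer cells from less RNA per cell.

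The other Treg markers differed between genotypes in both directions. Of 9 measured Treg markers besides the 6 genes, 2 were higher and 1 lower in CKO stimulated cells, and 4 higher and 1 lower in CKO unstimulated cells. Over all genes 11.6% were higher and 12.4% lower in CKO stimulated cells, and 7.83% higher and 10.9% lower in CKO unstimulated cells. The markers' summed linear signal, in units of the 75th percentile, was 124 to 179 in CKO and 143 to 184 in WT stimulated cells, and 49.4 to 64.5 in CKO and 48.1 to 76.2 in WT unstimulated cells. In stimulated cells the brightest markers by far were Tnfrsf18 (log2 6.18 in CKO and 5.98 in WT) and Capg (5.83 and 6.13), which dominate the sum. Stimulated cells held Capg at 192% of its Treg level in CKO and 232% in WT, so the sum does not measure a share of Treg. Nrp1, a semaphorin receptor of thymic Treg, was 3.93-fold higher in CKO stimulated cells (adjusted p = 2.82e-04) and 4.11-fold in unstimulated ones (adjusted p = 3.20e-04). Gpr83, a receptor rich in Treg, was 5.45-fold and 5.69-fold lower (adjusted p = 5.50e-08 and 3.65e-08). Ctla4, an inhibitory receptor, was 2.94-fold higher in CKO unstimulated cells (adjusted p = 0.00113) and differed by 0.42 in stimulated cells (log2, adjusted p = 0.285). Il2ra, which encodes the CD25 used to sort the cells, was 2.14-fold higher in CKO unstimulated cells (adjusted p = 1.09e-04) and differed by -0.00 in stimulated cells (log2, adjusted p = 0.993). Whether a changed share of Treg in the naive sort plays a part in the Foxp3 difference was not tested.

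Ikzf2, which encodes Helios, was, like Foxp3, far higher in Treg than in naive cells, and its genotype differences in naive cells were smaller than those of Foxp3 in the fit. Its brightest probe (A_51_P413398, chromosome 1) read 3.43, 3.20, 3.28 and 2.97 in CKO Treg, against 3.27, 3.60, 3.71 and 4.01 in WT Treg. It read -2.97, -2.97, -3.11 and -2.60 in CKO stimulated cells, against -3.76, -3.06, -3.62 and -3.74 in WT stimulated cells. It read -1.59, -1.85, -2.03 and -2.05 in CKO unstimulated cells, against -2.45, -1.72, -2.67 and -2.40 in WT unstimulated cells. CKO and WT arrays overlapped in all 3 states.

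Treg exceeded unstimulated naive cells in Ikzf2 by 34.3-fold in CKO (log2 5.10 ± 0.20, adjusted p = 2.25e-13) and 62.1-fold in WT (log2 5.96 ± 0.20, adjusted p = 1.27e-14). Stimulation lowered it 2.04-fold in CKO (log2 -1.03 ± 0.20, adjusted p = 1.73e-04) and 2.35-fold in WT (log2 -1.23 ± 0.20, adjusted p = 1.93e-05). Stimulated Ikzf2 was 1.55-fold higher in CKO than in WT (log2 0.63 ± 0.20, adjusted p = 0.0301), and the adjusted p was 0.143 in unstimulated cells (log2 0.43). The falls with stimulation were not called with normexp (log2 -0.30 in CKO, adjusted p = 0.0598, and -0.28 in WT, adjusted p = 0.0871), nor in WT with the signal floor (log2 -0.38, adjusted p = 0.0713). The genotype call in stimulated cells was lost under 7 of 15 alternatives, down to a log2 of 0.02 with a signal floor. It was also lost without CKO stimulated array 2 or 4 or WT stimulated array 1, 3 or 4 (log2 0.52 to 0.65, adjusted p 0.0567 to 0.0802). Within each array, the Foxp3 to Ikzf2 log ratio was higher by 1.82 in CKO than in WT stimulated cells, with no overlap (exact permutation test, two-sided p = 0.0286, the smallest that 4 against 4 arrays allow, and 0.12 after adjustment over 63 such tests, which were chosen after the values were seen).

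In Treg, Ikzf2 differed by -0.43 ± 0.20 between CKO and WT (log2, unadjusted p = 0.0478, adjusted p = 0.350). The second probe (A_52_P268911) read -0.02, -0.02, 0.68 and 0.49 in CKO Treg, against 0.78, 0.86, 1.61 and 1.64 in WT Treg, with no overlap (log2 difference -0.94 ± 0.55, adjusted p = 0.515). Such separation was seen for 8.33% of all genes. The array's own coordinates, on a build it does not name, put this probe 143461 bases before the main probe in the direction of transcription. It was well above background on 1 of 4 CKO and 0 of 4 WT stimulated arrays, and gives no level there. A further 3 probes carry a name that RefSeq lists as a synonym of Ikzf2. The brightest of these (A_52_P413515) averaged 2.95 ± 0.16 in CKO and 3.66 ± 0.18 in WT Treg (SD, n = 4 each, log2 difference -0.71 ± 0.23, SE, adjusted p = 0.0969). In the limma fit none of the 5 Helios probes was called between genotypes in Treg, while normexp called the main probe there (log2 -0.48, adjusted p = 0.0368).

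Ikzf4, which encodes Eos, a FOXP3 partner in gene repression, was also highest in Treg. Its brightest probe (A_51_P353247, chromosome 10) read -1.17, -1.29, -1.19 and -0.89 in CKO Treg, against -1.51, -1.15, -1.04 and -1.46 in WT Treg. It read -3.50, -3.45, -2.80 and -3.16 in CKO stimulated cells, against -3.90, -4.22, -4.52 and -3.50 in WT stimulated cells, and its lowest CKO array stood just above the highest WT array. It read -4.00, -4.00, -4.83 and -3.59 in CKO unstimulated cells, against -4.19, -4.31, -5.03 and -4.70 in WT unstimulated cells. Treg and unstimulated groups overlapped between genotypes.

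Ikzf4 was 7.83-fold higher in CKO Treg than in CKO unstimulated cells (log2 2.97 ± 0.25, adjusted p = 2.41e-08) and 9.63-fold higher in WT (log2 3.27 ± 0.25, adjusted p = 4.25e-09). It was 1.75-fold higher in CKO than in WT stimulated cells (log2 0.81 ± 0.25, adjusted p = 0.0245), with 0.45 in unstimulated cells (adjusted p = 0.207) and 0.16 in Treg (adjusted p = 0.876). Stimulation raised it 1.84-fold in CKO (log2 0.88 ± 0.25, adjusted p = 0.00472), and in WT the log2 difference was 0.52 ± 0.25 (adjusted p = 0.0766). A further probe (A_52_P291857) was called between genotypes in stimulated cells (log2 0.71 ± 0.22, adjusted p = 0.0266) and, at the threshold, in unstimulated cells (log2 0.63 ± 0.22, adjusted p = 0.04999). The other (A_51_P445117) was called in neither (log2 0.43, adjusted p = 0.202, and 0.10, adjusted p = 0.802). The stimulated Ikzf4 call was lost under 7 of 15 alternatives and without CKO stimulated array 3 or WT stimulated array 2 or 3 (log2 0.65 to 0.75, adjusted p 0.0717 to 0.0913), and with a signal floor the difference was 0.00, since all naive values lie below that floor.

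**Figure D2:**
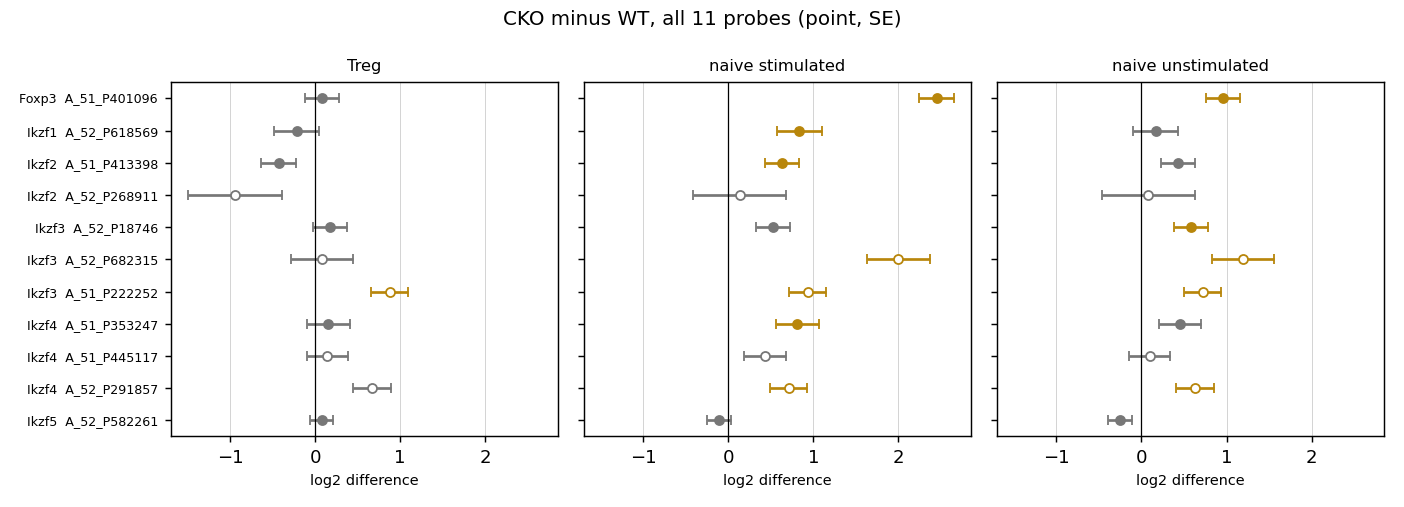
Log2 difference CKO minus WT (x axis, same scale in each panel) with its SE for all 11 probes in Treg, stimulated and unstimulated naive cells. Filled points are the brightest probe of each gene, and gold marks an adjusted p under 0.05 over all 25198 kept probes. Foxp3 at 2.45 and an Ikzf3 probe at 2.00 in stimulated cells stand furthest from 0.

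Ikzf3, which encodes Aiolos, gave a different pattern at each of its 3 probes on chromosome 11. The brightest (A_52_P18746) read 5.26, 5.10, 5.08 and 4.76 in CKO stimulated cells, against 4.81, 4.56, 4.47 and 4.27 in WT stimulated cells. It read 3.07, 3.15, 3.25 and 2.45 in CKO unstimulated cells, against 2.72, 2.24, 2.22 and 2.40 in WT unstimulated cells. In Treg it averaged 4.42 ± 0.33 in CKO and 4.24 ± 0.30 in WT (SD, n = 4 each). All stimulated arrays lay above all unstimulated arrays, while the genotypes overlapped in each state.

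By that probe stimulation raised Ikzf3 4.20-fold in CKO (log2 2.07 ± 0.20, adjusted p = 1.55e-08) and 4.38-fold in WT (log2 2.13 ± 0.20, adjusted p = 7.36e-09). Treg exceeded unstimulated cells 2.72-fold in CKO (adjusted p = 1.84e-05) and 3.61-fold in WT (adjusted p = 5.26e-07). CKO exceeded WT 1.50-fold in unstimulated cells (log2 0.59 ± 0.20, adjusted p = 0.0448) and the difference of 0.53 ± 0.20 in stimulated cells was not called (adjusted p = 0.0586). Both genotype values lie near the threshold. The unstimulated call was lost without CKO array 1, 2 or 3 or WT array 2, 3 or 4 (log2 0.50 to 0.59), and the stimulated difference was called under 11 of 15 alternatives, with slide as a fixed block among them (adjusted p = 0.0483).

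The second probe (A_52_P682315) read -0.42, -0.42, 0.37 and -0.88 in CKO stimulated cells, against -2.89, -2.87, -1.70 and -1.89 in WT stimulated cells, with no overlap. It read -0.74, -0.10, -0.80 and -1.32 in CKO unstimulated cells, against -1.85, -2.43, -1.55 and -1.92 in WT unstimulated cells, again with no overlap. The genotype difference was thus 4.00-fold in stimulated (log2 2.00 ± 0.37, adjusted p = 8.07e-04) and 2.29-fold in unstimulated cells (log2 1.19 ± 0.37, adjusted p = 0.0292), and 0.08 ± 0.37 in Treg. With stimulation it differed by 0.40 in CKO and -0.40 in WT, neither called. The third probe (A_51_P222252) was called higher in CKO in all 3 states, at 1.91-fold in stimulated (adjusted p = 0.00533), 1.65-fold in unstimulated (adjusted p = 0.0273) and 1.84-fold in Treg cells (adjusted p = 0.0230), and in neither genotype with stimulation. It was the only member probe called between genotypes in Treg, against 3.74% of all kept probes called. The third probe was dim, with means of -3.81 to -2.77 in the naive groups, below the signal floor. In Treg its mean signal before scaling was 28.1 in CKO and 29.6 in WT. The Treg difference thus appeared only after each array was scaled. Whether the calls of this probe hold with normexp or the signal floor was not tested.

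Along the direction of transcription the array places the second probe first, the brightest 29494 bases further on and the third another 16887 bases on. The array does not say which exon or transcript form each probe reads. Within arrays, the log ratio of the brightest to the second probe was 5.39 in CKO and 6.86 in WT stimulated cells, a difference of -1.47 with no overlap (exact permutation test, two-sided p = 0.0286, 0.12 after adjustment over the same 63 tests). None of the 63 passed after adjustment. Aiolos is also a B cell gene. The summed signal of 15 B cell markers was 42.9 to 148 in CKO and 22.1 to 77.6 in WT unstimulated cells, and 4.09 to 16.4 in CKO and 2.07 to 7.64 in WT stimulated cells. Of them 1 was called higher in CKO unstimulated cells and 4 in CKO stimulated cells, against 7.83% and 11.6% of all genes. Each of the 15 had a higher mean in CKO in both naive states (list median log2 1.11 unstimulated and 1.33 stimulated). Of 10 markers of CD8, NK and unconventional T cells, 2 were higher in CKO stimulated cells (11.6% of all genes). In CKO unstimulated cells 3 were higher and 1 lower (7.83% and 10.9% of all genes). The part of such cells in the Ikzf3 values was not tested.

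**Figure D3:**
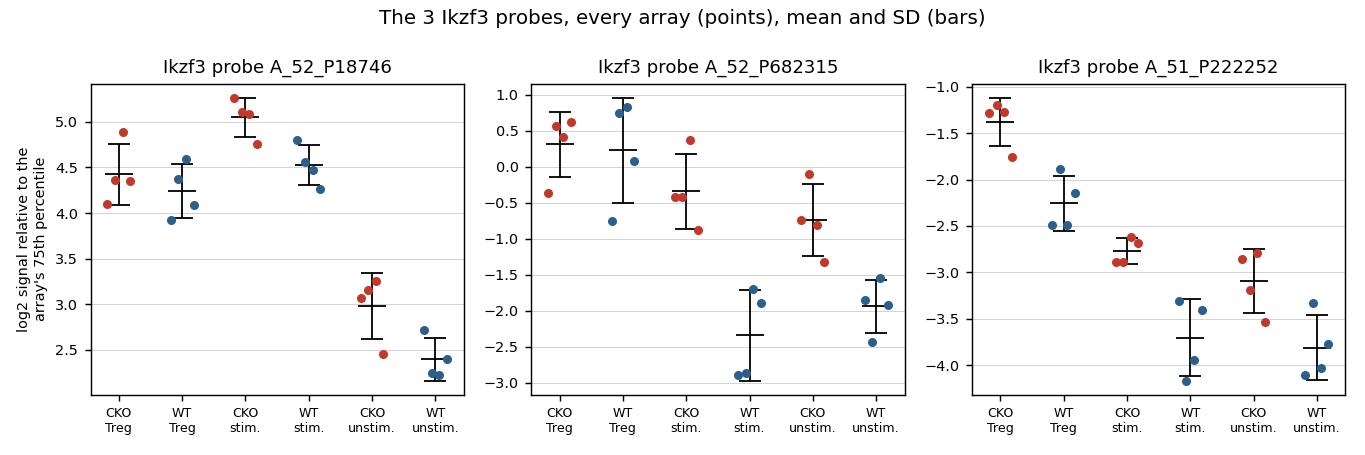
Log2 signal relative to the array's 75th percentile (y axis, scale set per probe) for the 3 Ikzf3 probes in the 6 groups of 4 arrays (CKO red, WT blue), with mean and SD as bars. The probe on the left separates stimulated from unstimulated cells, the middle probe separates CKO from WT naive cells, and on the right CKO Treg (mean -1.38) stand above WT Treg (mean -2.25).

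Ikzf1, which encodes Ikaros itself, was bright in all 6 groups and lowest in WT stimulated cells. Its probe (A_52_P618569, chromosome 11) read 3.31, 3.40, 4.06 and 2.70 in CKO stimulated cells, against 2.11, 2.38, 3.02 and 2.64 in WT stimulated cells, with overlap. CKO unstimulated cells averaged 3.73 ± 0.17 and WT unstimulated cells 3.56 ± 0.51, and CKO Treg 3.34 ± 0.28 and WT Treg 3.56 ± 0.28 (SD, n = 4 each). Only the WT stimulated group thus stood apart in its mean. Ikzf1 was 1.78-fold higher in CKO than in WT stimulated cells (log2 0.83 ± 0.27, adjusted p = 0.0286), and not called in unstimulated cells (0.17, adjusted p = 0.688) or in Treg (-0.22, adjusted p = 0.822). With stimulation it fell 2.04-fold in WT (log2 -1.03 ± 0.27, adjusted p = 0.00204) and differed by -0.36 in CKO (adjusted p = 0.249). The interaction of 0.67 ± 0.38 was not called (adjusted p = 0.420). The genotype call was lost without CKO stimulated array 2 or 3 or WT stimulated array 1 or 2 (log2 0.60 to 0.82). Treg and naive cells were not called different (adjusted p = 0.290 in CKO and 0.996 in WT).

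Ikzf5, which encodes Pegasus, varied least, with group means spanning 0.83 on the log2 scale, against 7.10 for Foxp3. Its probe (A_52_P582261, chromosome 7) read -0.42, -0.60, -0.33 and -0.76 in CKO stimulated cells, against -0.01, 0.07, 0.14 and 0.00 in CKO unstimulated cells. It read -0.57, -0.29, -0.27 and -0.56 in WT stimulated cells, against 0.44, 0.38, 0.48 and -0.08 in WT unstimulated cells. Stimulated arrays lay below all unstimulated arrays of the same genotype. Stimulation lowered Ikzf5 1.49-fold in CKO (log2 -0.58 ± 0.14, adjusted p = 0.00110) and 1.65-fold in WT (log2 -0.73 ± 0.14, adjusted p = 1.00e-04). It was 1.40-fold lower in WT Treg than in WT unstimulated cells (adjusted p = 0.00701), a call lost with scaling on the 2000 probes brightest across arrays (log2 -0.06, adjusted p = 0.799). In the limma fit no genotype difference was called for Ikzf5. It was called lower in CKO unstimulated cells with array weights (log2 -0.35, adjusted p = 0.0139) and without WT unstimulated array 4 (log2 -0.38, adjusted p = 0.0335).

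Over the 6 genes, 4 were called higher in CKO stimulated cells and none lower, against 24% of all genes called (11.6% higher, 12.4% lower), with a median of 0.72 against -0.05 over all genes. In CKO unstimulated cells 2 were higher and none lower, against 18.7% (7.83% higher, 10.9% lower), with a median of 0.44 against 0.01. In Treg limma called none of the 6, against 4.31% (2.47% higher, 1.84% lower), and 1 had an unadjusted p under 0.05. Normexp called Ikzf2 there. Of the 11 probes, 7 were called higher in CKO stimulated and 5 in CKO unstimulated cells, with none lower. Over all kept probes 22.4% and 19.4% were called in either direction. Probes of the same gene are not independent of each other. With stimulation 3 genes rose and 2 fell in CKO cells, against 60.2% called (29.7% higher, 30.4% lower). In WT cells 1 rose and 4 fell, against 61.9% (31.7% higher, 30.2% lower). Stimulated and unstimulated arrays did not overlap for 4 of the 6 genes in each genotype, against 56.9% of all genes in CKO and 55.2% in WT. Genotype by cell type gave no call, against 0.394%, with unadjusted p under 0.05 for Foxp3 and Ikzf2. These were Foxp3 at -0.87 ± 0.28 (adjusted p = 0.214) and Ikzf2 at -0.86 ± 0.29 (adjusted p = 0.228) on the log2 scale. The naive T cell markers also differed in stimulated cells, where 4 of 7 were higher in CKO (summed signal 69.8 to 131 in CKO and 64.8 to 99.9 in WT). Their part in the stimulated differences was not tested.

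**Figure D4:**
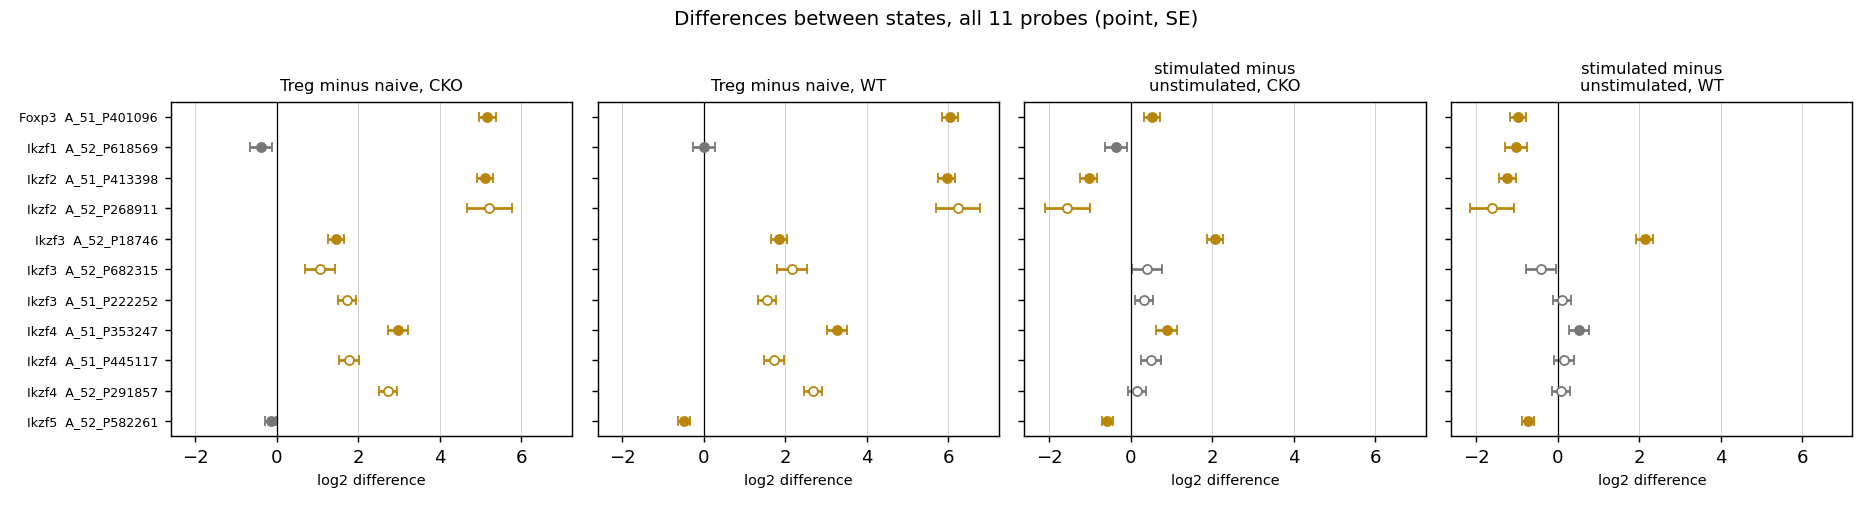
Log2 difference between states (x axis, same scale in each panel) with its SE for all 11 probes, as Treg minus unstimulated naive and stimulated minus unstimulated in CKO and in WT cells. Gold marks an adjusted p under 0.05, and filled points are the brightest probe of each gene. Foxp3 lies at 0.51 with stimulation in CKO and at -0.98 in WT.

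Factors known to act on the Foxp3 gene were called in both directions. The counts of this and the following lists stand beside 24% of all genes called in stimulated cells (11.6% higher, 12.4% lower), 18.7% in unstimulated cells (7.83% higher, 10.9% lower) and 4.31% in Treg (2.47% higher, 1.84% lower). Of 26, 9 were higher and 3 lower in CKO stimulated cells (median 0.35), and 2 higher and 4 lower in CKO unstimulated cells (median 0.02). In Treg limma called none, with 3 at an unadjusted p under 0.05. Gfi1, a zinc finger repressor, was higher in CKO by 1.88-fold in stimulated (adjusted p = 0.00119) and 1.81-fold in unstimulated cells (adjusted p = 0.00304). Nr4a2, a nuclear receptor that can activate Foxp3, was 2.20-fold higher in CKO stimulated cells (adjusted p = 0.0297), and its relative Nr4a3 2.41-fold higher in CKO unstimulated cells (adjusted p = 0.0277). Satb1, a genome organiser, was 1.86-fold higher in CKO stimulated cells (adjusted p = 2.21e-05). Uhrf1, which maintains DNA methylation, was 2.39-fold lower there (adjusted p = 8.70e-04). Smad3, a TGF-beta signal transducer, was 1.82-fold lower in CKO unstimulated cells (adjusted p = 0.0174).

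Of 19 FOXP3 protein partners and modifiers, 2 were higher and 3 lower in CKO stimulated cells, none higher and 1 lower in unstimulated cells, and none higher and 1 lower in Treg. Gata3, the Th2 factor, was 1.70-fold higher in CKO stimulated cells (adjusted p = 0.00124) and Runx1, which binds FOXP3, 1.52-fold higher (adjusted p = 4.27e-04). Ezh2, the H3K27 methyltransferase, was 1.70-fold lower (adjusted p = 0.00225). Cbfb, the partner of RUNX proteins, was the member called in unstimulated cells, 1.48-fold lower in CKO (adjusted p = 0.0213).

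Of 19 genes that FOXP3 is known to raise in Treg, 16 were higher in Treg than in naive cells in CKO (11.6% of all genes). In WT 18 of the 19 were higher (18.9% of all genes), and none was lower in either genotype. Between genotypes, 3 were higher and 2 lower in CKO stimulated cells, 4 higher and 2 lower in unstimulated cells, and none higher and 4 lower in CKO Treg. Those 4 were Klrg1 (6.90-fold lower, adjusted p = 0.0121), Penk (4.98-fold, adjusted p = 0.00751), Gpr83 (2.67-fold, adjusted p = 8.49e-05) and Il10 (1.96-fold, adjusted p = 0.0319), while Foxp3 itself differed there by 0.08. Of 13 genes that FOXP3 is known to lower, 4 were higher and none lower in CKO stimulated cells. Il7r, the IL-7 receptor, was 2.40-fold higher (adjusted p = 0.00555), beside Satb1, Bcl2 and Ptpn22. None was higher and 2 were lower in CKO unstimulated cells, Lef1 by 1.74-fold (adjusted p = 0.00969) and Zap70 by 1.35-fold (adjusted p = 0.0416). In CKO Treg only Ifng was called, 3.11-fold lower (adjusted p = 0.0184).

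Among 27 corepressors and modifiers of Ikaros proteins, 1 was higher and 4 lower in CKO stimulated cells, none higher and 2 lower in unstimulated cells, and none was called by limma in Treg, with 1 at an unadjusted p under 0.05. With both directions together these were smaller shares than over all genes in both naive states. The share that was lower in CKO stimulated cells was not smaller. Chd3, a NuRD remodeller, was the 1 that was higher, 1.35-fold (adjusted p = 0.0234). Mbd3, a NuRD subunit, was 2.59-fold lower in CKO unstimulated cells (adjusted p = 0.0307) and Ctbp1, a corepressor, 1.48-fold lower (adjusted p = 0.00825). Of 13 other FOX genes, 1 was higher and 1 lower in CKO stimulated cells, none higher and 3 lower in unstimulated cells, and none higher and 1 lower in Treg. Foxo1, which acts in naive T cells and on Foxp3, was 1.36-fold higher in CKO stimulated (adjusted p = 0.00859) and 1.29-fold lower in CKO unstimulated cells (adjusted p = 0.0316). Of 25 other zinc finger factors, 6 were higher and 1 lower in CKO stimulated cells, 2 higher and 3 lower in unstimulated cells, and none higher and 1 lower in Treg. Klf2, a factor of resting T cells, was 2.80-fold higher in CKO stimulated cells (adjusted p = 5.69e-04). Bcl6, a transcriptional repressor active in follicular helper cells, was 2.24-fold higher there (adjusted p = 1.86e-04).

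Likeness of pattern was measured as the root mean square difference between the 6 centred group means on the log2 scale. The genes nearest to Foxp3 were Il1rl1 (0.67), Rgs9 (0.67), Frmd5 (0.69) and Ikzf2 (0.70). Of these Rgs9, a regulator of G protein signalling, was also higher in CKO stimulated cells (log2 1.75 ± 0.35, adjusted p = 0.00168). Nearest to Ikzf2 were Itgae (0.43), Flicr (0.45), Dst (0.46) and Frmd5 (0.47). Nearest to Ikzf4 were Slc43a1 (0.25), Nt5e (0.29), Cish (0.31) and Il2rb (0.31), and nearest to the brightest Ikzf3 probe Jam2 (0.23), Lamb3 (0.25), Procr (0.27) and Cgref1 (0.27). The Foxp3 neighbours were thus less close than those of the other 3 genes, over the same 6 groups. Some neighbours were dim outside the groups where they were highest. In unstimulated cells Jam2 averaged -7.12 in CKO and -7.47 in WT, and Cgref1 -6.55 and -7.07. Frmd5 averaged from -6.71 to -5.58 in the naive groups. A neighbour needed signal well above background in only 1 group, so its other group means may lie at background.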

How the data were processed

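Cy3-labelled cRNA from 24 samples was hybridized to Agilent mouse arrays. Spot intensity was taken from the deposited scanner output, whose processed signal had its background subtracted and spatial trend removed (per the file headers), by Agilent Feature Extraction 9.5 per the submitters' processing notes. The authors' deposited normalized values, also an intensity, served as an alternative. They had the same distribution in every column. No genome build is named in the files.

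Signals were put on the log2 scale and each array's 75th percentile was subtracted. Spots flagged as outliers were dropped, and repeat spots averaged per probe. A probe was kept when well above background on at least 3 of 4 arrays of at least 1 group (25198 of 41174 probes), and the brightest kept probe stood for its gene (for the 6 genes, among the probes the array names for them). Of all probes, 22951 were named by RefSeq accession, 6659 by symbol and 3109 by synonym, and 8455 kept the array's name. Group means of all 24 arrays were fitted with limma 3.58.1 in R 4.3.3, and 9 contrasts were tested two-sided with Benjamini-Hochberg adjustment over 16489 genes, or over the kept probes where a single probe is named. Data were simulated for 16464 genes, with changes planted in a small part of them. A log2 change of 1, planted in 67 genes per comparison, was recovered for 58.2%, 56.7% and 47.8% in the unstimulated, stimulated and Treg comparisons. A change of 2, planted in 66 genes, was recovered for 95.5%, 89.4% and 84.8%. Fewer genes were changed in the simulation than were called in the real data. The number of arrays limits the precision. The median SE was 0.22. Replicates correlated at 0.961 to 0.993.

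The 6 genes, the lists and the markers were chosen with earlier results of these data known. Genes were named by rule: all 6 with every probe, up to 4 called genes per list and contrast with the largest difference among genes measured in both groups, and the 4 nearest genes of each member whose group means span over 2. The markers named with values and the within-array probe ratios were chosen after the values were seen. Alternatives covered background correction, normalization, scaling, filters, choice of probe, a signal floor, array weights, slide, replicate and age terms, the arrays fitted and leaving out each array. Same-numbered arrays deviated together at an r above 0.1 in all 4 pairs only between CKO Treg and CKO unstimulated cells (r 0.37 to 0.49), where the pairing comes from the data and not from the labels. All 4 pairs were also positive between WT Treg and WT unstimulated cells (r 0.06 to 0.47). The same held between CKO stimulated and unstimulated cells (r 0.09 to 0.38) and between CKO and WT Treg (r 0.08 to 0.46). Figures were drawn in Python with matplotlib.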

Additional observations from a re-analysis of the deposited data

Results flagged for a closer look

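The Foxp3 genotype difference was larger in stimulated than in unstimulated naive cells by 1.49 ± 0.28 on the log2 scale (limma interaction, adjusted p = 0.00460). It was 0.46 with normexp (adjusted p = 0.0995) and 0.60 with a signal floor (adjusted p = 0.140), and called under neither. All 4 CKO arrays lay above all 4 WT arrays in both states. The third Ikzf3 probe (A_51_P222252) read -1.76 on CKO Treg array 4, apart from -1.28, -1.19 and -1.27 on the other CKO Treg arrays. Its gap to the nearest array was 0.844 of the group's range, above Dixon's 95% critical value for 4 samples. It was 1 such array among 66 groups tested, where chance flags about 1 in 20 groups.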

How the results depend on the processing

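Foxp3 was called higher in CKO stimulated cells under all 15 alternatives (log2 0.73, with normexp, to 2.72) and without each array (log2 2.32 to 2.56). In unstimulated cells it was lost with normexp only (0.27), and the value was 0.81 to 1.13 without each array. Among the genotype differences of the 6 genes and the counts of genes called, under the 15 alternatives, 351 values kept their direction and side of the threshold, or for counts stayed within 1.5 times, 23 were no longer called, 14 became called and 17 counts moved. None reversed with a call. The cause of each change below was not tested, except where stated.

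With normexp, Ikzf3 in unstimulated cells was 0.62, Ikzf1, Ikzf2, Ikzf3 and Ikzf4 in stimulated cells 0.91, 0.0921, 0.76 and 0.11, and Ikzf2 in Treg -0.48 (called, adjusted p = 0.0368). The counts called were 0 of 6 unstimulated, 2 stimulated, 1 in Treg, 3 with stimulation in WT and 0 for the interaction with stimulation, where Foxp3 was 0.46 (adjusted p = 0.0995). With quantile normalization, Ikzf3 was 0.66 unstimulated and 0.79 stimulated, Ikzf2 0.37 and Ikzf4 0.51 stimulated, with 1 gene called in unstimulated cells. The authors' values gave 0.66, 0.79, 0.37 and 0.51 for the same 4, and 1. With no filter on dim probes, which tests more genes, Ikzf3 was not called in unstimulated cells (0.59) nor Ikzf1, Ikzf2 and Ikzf4 in stimulated cells (0.83, 0.63 and 0.81), leaving 1 call in each state. Fitting only the compared arrays, which leaves fewer samples, gave the same values and counts. With a signal floor Ikzf2 was 0.0222 and Ikzf4 0.00 in stimulated cells, with 2 called there, 3 with stimulation in WT and 0 for the interaction (Foxp3 0.60, adjusted p = 0.140). The mean of kept probes gave 0.38 for Ikzf2 and 1.15 for Ikzf3 in stimulated cells. Keeping only probes above background on all arrays gave 0.43 for Ikzf4, through another probe, and 0.53 for Ikzf3. Array weights gave 0.52 for Ikzf2 and -0.35 for Ikzf5 in unstimulated cells (4 called), 0.66 for Ikzf3 in stimulated cells and 1 call for genotype by cell type. Scaling on the 2000 brightest shared probes gave 0.80 for Ikzf3 in stimulated cells and 3 calls with stimulation in CKO. Under this scaling the median of all genes was 0.16 in unstimulated and 0.22 in stimulated cells, against 0.01 and -0.05 in the main fit. The share of calls that were higher was 70% and 82.6%. With slide as a fixed block, slide as a random block or age as a covariate, Ikzf3 in stimulated cells kept 0.53 and became called (adjusted p = 0.0483, 0.0430 and 0.0456).

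Same-numbered CKO and WT arrays of a state shared a slide. Their deviations correlated at r of -0.21 to 0.17 in unstimulated, -0.31 to 0.41 in stimulated and 0.08 to 0.46 in Treg cells. Such values do not settle whether the numbers pair the genotypes beyond the slide. Across states of a genotype, r was 0.37 to 0.49 between CKO Treg and CKO unstimulated arrays, all 4 above 0.1, 0.06 to 0.47 between WT Treg and WT unstimulated, 0.09 to 0.38 between CKO stimulated and unstimulated and -0.16 to 0.54 between WT stimulated and unstimulated arrays. With the replicate block, Ikzf3 in stimulated cells kept 0.53 (adjusted p = 0.0380), no other call among the 6 genes changed in any of the 9 contrasts, and all genes called numbered 3818, 4891 and 911 in unstimulated, stimulated and Treg cells. Without each array in turn, the ranges were 0.31 to 0.62 for Ikzf2, 0.50 to 0.76 for Ikzf3 and -0.38 to -0.20 for Ikzf5 in unstimulated cells (1 to 2 genes called). In stimulated cells they were 0.60 to 1.06 for Ikzf1, 0.52 to 0.79 for Ikzf2, 0.44 to 0.62 for Ikzf3 and 0.65 to 0.99 for Ikzf4 (2 to 4 called). Low signal limits Ikzf4, the second Ikzf2 probe and the third Ikzf3 probe in naive cells. It also limits Foxp3 in WT naive cells and the main Ikzf2 probe in stimulated cells. On all 4 WT stimulated arrays Foxp3 and the main Ikzf2 probe lay below the signal floor of -2.69, though well above background. The main Ikzf2 probe also lay below it on CKO stimulated arrays 1, 2 and 3 (-2.97, -2.97 and -3.11). Foxp3 did so on WT unstimulated arrays 3 and 4 (-3.155 and -2.937), and the second Ikzf3 probe on WT stimulated arrays 1 and 2 (-2.89 and -2.87). The means of the third Ikzf3 probe lay below it in each naive group.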
